A study of Homo sapiens with 30 samples.

Results

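MYC and 39 genes of ribosome biogenesis were followed through the RNA-seq libraries of a study of progestin action in T47D cells. T47D is an established human luminal breast cancer line that carries the progesterone receptor. The 40 genes were chosen by their known function, with earlier results of these data known. They were matched to the count files by symbol through their Ensembl identifiers. All 40 were found among the 60554 genes of the count files, and all 40 passed the filter on low counts in each comparison. By role they were MYC itself, 7 genes of RNA polymerase I and the nucleolus, 8 of the small nucleolar ribonucleoproteins (snoRNPs), 13 of the small ribosomal subunit and 11 of the large subunit.

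There were 12 libraries in 6 groups of 2. Cells labelled ICRF were treated with progestin or left untreated. The hormone is called progesterone in the sample titles and R5020, a synthetic progestin used at 10 nM, in the protocol. Cells given an siRNA against CEBPA, the gene of the transcription factor C/EBPα, were likewise progestin-treated or untreated, and so were cells given a control siRNA. These groups are called ICRF, siCEBPA and siControl below. The labels do not say what ICRF is, and the series' design text names inhibition of topoisomerase IIα. All cells were at passages 18 to 20. In the siRNA libraries untreated cells carried the time label T0 and progestin cells T360, without a unit, and both had a short arrest, which the protocol describes as 4 h in charcoal-treated serum. Hormone and time label therefore cannot be told apart there. The ICRF libraries name no siRNA, arrest or time, so levels with ICRF stand beside those of the siRNA libraries without a test. The labels do not say that replicates were separate cultures, so each p-value rests on differences between libraries that may be no more than technical.

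Ribosomes are built in the nucleolus. RNA polymerase I transcribes a long precursor RNA there, snoRNPs modify it, and large assemblies of processing factors cut and fold it into the small and the large subunit. MYC, a transcription factor that binds DNA with its partner MAX, is known as a driver of genes at every one of these steps, and in breast cancer cells it is a known early target of progestins and oestrogens. Its preferred binding motif is the E-box CACGTG.

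The libraries held 57364785 to 148624099 counted read pairs, with siControl untreated replicate 2 the deepest. The 40 genes took 0.595% to 0.777% of all counts. CEBPA was lower in cells given its siRNA. It was at 57.5 and 62.2 CPM (read pairs scaled to a common library size, with TMM factors) in siCEBPA progestin cells against 206.9 and 204.0 CPM in siControl progestin cells, and at 10.7 and 12.1 CPM in siCEBPA untreated cells against 47.7 and 54.4 CPM in siControl untreated cells. Of 10 luminal epithelial markers, 9 were at 26.9 CPM (ESR1, the oestrogen receptor) or higher in every library, and TFF1 ranged from 2.14 to 26.5 CPM. Of 14 fibroblast, endothelial and blood cell markers, 12 were under 1 CPM in every library, among them PECAM1, PTPRC, CD3E and HBB, which were at 0 in at least 1 library. LUM reached 3.48 CPM and COL1A1 was at 25.6 to 69.1 CPM. In these bulk libraries fewer cells of a type and less RNA per cell cannot be told apart.

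The promoters of the list hold E-boxes often. A RefSeq promoter window, 250 bases before to 50 after the start site on GRCh38.p14, was given for 32 of the 40 genes. The letters CACGTG, which read the same on both strands, occurred in 12 of these 32 windows (37.5%), against 9.80% of the 12326 windows of genes tested in the siRNA libraries and 7.43% of all 27305 windows. A separate list of other small and large subunit factors had the motif in 25 of 67 windows (37.3%). A C/EBP core, ATTGCG, searched on both strands, was in 2 of the 32 windows (6.25%) and in 4.47% of the tested genes' windows. It was in 3.21% of all windows and in 5.97% of those of the other subunit factors. The core bound by the progesterone receptor, TGTTCT, was in 5 of 32 (15.6%) and in 9.30% of the tested genes' windows. In all windows its share was 14.9%, and in those of the other subunit factors 17.9%, so the 40 genes did not stand out. None of the 3 words contains another, and a match is a description of the sequence and not evidence of binding.

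The 12 windows with an E-box were picked for display after their genes were seen to fall with ICRF, as described further on. With ICRF 12 of the 20 genes with a window and no E-box fell as well. A link between the motif and the fall was not tested. Each line gives the motif in capitals with up to 12 bases on either side, 5′ to 3′ on the gene's strand, from RefSeq. Every one of the 12 motifs lay close to the start site, beginning between 16 bases before it and 36 bases after it.
FBL: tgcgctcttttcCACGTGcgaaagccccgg
RRP9: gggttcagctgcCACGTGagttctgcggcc
MYBBP1A: ggggccggagcaCACGTGtttcgtgtttcg
NOP14: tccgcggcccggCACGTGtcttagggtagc
WDR43: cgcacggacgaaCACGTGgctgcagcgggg
UTP4: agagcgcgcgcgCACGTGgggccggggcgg
UTP20: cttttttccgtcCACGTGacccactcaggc
NAT10: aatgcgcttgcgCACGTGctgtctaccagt
BYSL: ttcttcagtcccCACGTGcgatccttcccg
LTV1: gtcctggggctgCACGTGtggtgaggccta
PES1: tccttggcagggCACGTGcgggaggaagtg
NOP2: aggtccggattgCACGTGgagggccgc

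For example, the stretch of FBL lies at chr19:39846356-39846385 on the minus strand, that of MYBBP1A at chr17:4555340-4555369 on the minus strand, and that of WDR43 at chr2:28894658-28894687 on the plus strand.

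All 40 genes were expressed. On the length-normalised scale (TPM, mean of 12 libraries) they ran from 8.58 TPM for PPAN, a large subunit factor, to 1853 TPM for NPM1, the nucleolar chaperone nucleophosmin, and MYC stood at 48.6 TPM. Next to NPM1 came NCL (nucleolin, 537 TPM), DDX21 (an RNA helicase of the nucleolus, 496 TPM) and NOLC1 (a chaperone of snoRNPs, 328 TPM). In CPM, 29 of the 40 genes had their highest group mean in siControl progestin cells. The lowest group mean was in ICRF progestin cells for 27 genes and in siCEBPA untreated cells for 10. These counts have no share over all genes beside them and only describe the list. They also rank ICRF libraries against siRNA libraries, whose levels were not tested against each other. The ratio of the highest to the lowest group mean was 9.67 for MYC and between 1.16 (HEATR1) and 3.08 (NOP16 and MYBBP1A) for the others.

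**Figure D1:**
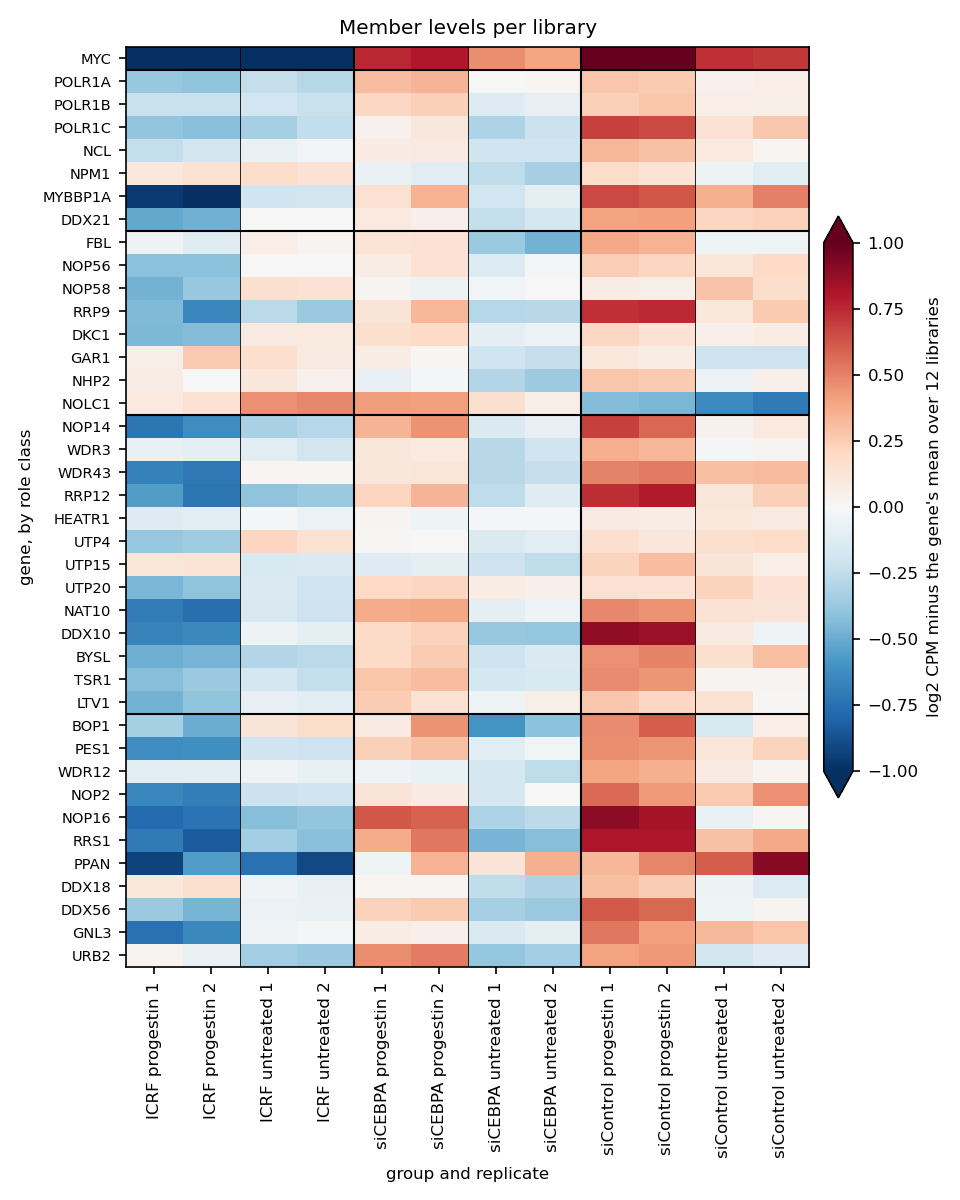
Level of each of the 40 genes (rows, by role) in each of the 12 libraries (columns), as log2 CPM minus the gene's mean over the 12 libraries; red is above and blue below that mean, and colours saturate at 1 log2 unit. The siControl progestin columns are the reddest for 29 genes by group mean, the ICRF progestin columns the bluest for 27, and NOLC1 goes against most rows. These counts have no share over all genes beside them.

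MYC was highest in siControl cells given progestin and lowest with ICRF. It was at 12.4 and 11.7 CPM in ICRF progestin cells against 8.98 and 6.02 CPM in ICRF untreated cells. It was at 48.9 and 50.6 CPM in siCEBPA progestin cells against 39.997 and 38.1 CPM in siCEBPA untreated cells, and at 69.9 and 75.1 CPM in siControl progestin cells against 48.25 and 47.4 CPM in siControl untreated cells. In each of the 3 pairs both progestin libraries lay above both untreated ones. All 4 ICRF libraries lay far below all 8 siRNA libraries. The means of siCEBPA progestin cells (49.8 ± 1.26 CPM, SD, n = 2) and siControl untreated cells (47.8 ± 0.608 CPM, SD, n = 2) were neighbours in the order, with a gap between their nearest libraries smaller than the larger of these SDs.

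MYC rose with progestin in all 3 settings. The log2 fold change (± SE, n = 2 libraries a group, edgeR's quasi-likelihood test with Benjamini-Hochberg adjustment over all genes) was 0.67 ± 0.19 with ICRF (adjusted p = 0.0270), 0.34 ± 0.06 in siCEBPA cells (adjusted p = 6.24e-05) and 0.59 ± 0.05 in siControl cells (adjusted p = 1.05e-07). The ICRF value moved with 1 library: it was 0.41 without ICRF untreated replicate 2 and 0.98 without ICRF untreated replicate 1, past the threshold both times. Neither difference of responses passed the threshold with the settings used throughout. It was 0.09 ± 0.19 for ICRF minus siControl (adjusted p = 0.752) and -0.25 ± 0.08 for siCEBPA minus siControl (adjusted p = 0.0675). The siCEBPA difference did pass in some alternatives, with adjusted p = 0.0236 with the replicate number as a block, 0.0431 with upper quartile scaling and 0.0460 with DESeq2, and over its 14 alternatives the edgeR or DESeq2 adjusted p ran from 0.0236 to 0.516. The ICRF difference became 0.40 (adjusted p = 0.00254, the lowest of its 17 alternatives, which reached 0.991) without ICRF untreated replicate 1.

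**Figure D2:**
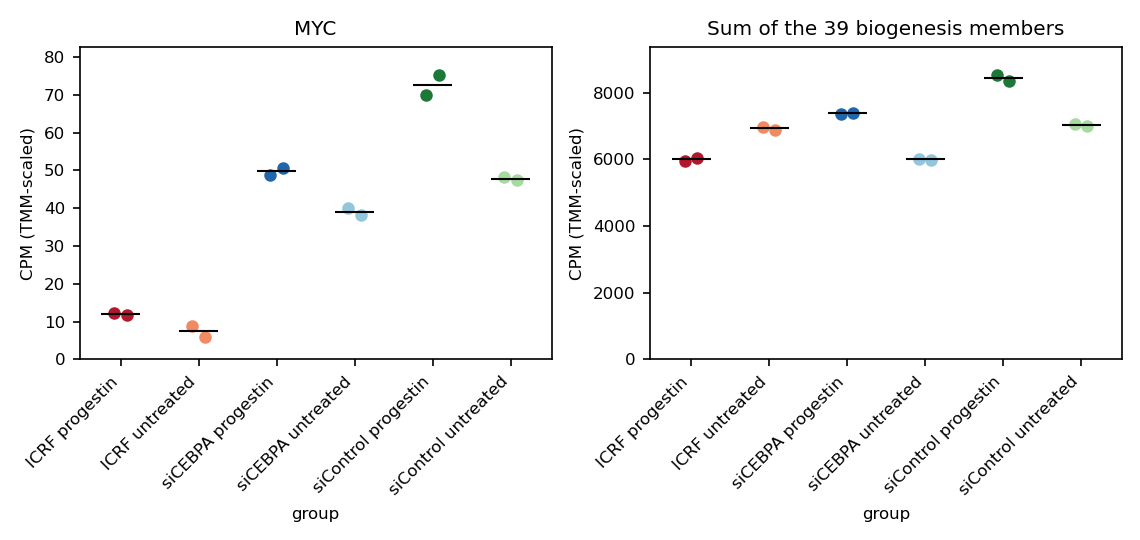
Left, MYC in CPM, and right, the summed CPM of the other 39 genes, in which NPM1, NCL and DDX21 weigh most, by group. Each point is a library and each line the mean of 2 libraries. MYC is at 6.02 to 12.4 CPM in the ICRF libraries and at 38.1 to 75.1 CPM in the siRNA libraries, while the sum is lower in ICRF progestin than in ICRF untreated cells and higher in progestin than in untreated cells of both siRNA groups.

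The summed level of the other 39 genes did not follow MYC with ICRF. It was 5947 and 6055 CPM in ICRF progestin cells against 6961 and 6897 CPM in ICRF untreated cells. It was 7372 and 7395 CPM in siCEBPA progestin cells against 6007 and 5994 CPM in siCEBPA untreated cells, and 8520 and 8365 CPM in siControl progestin cells against 7059 and 6991 CPM in siControl untreated cells. The groups of a pair overlapped in no case, and the same held for CPM from plain library totals. NPM1, NCL and DDX21 weighed most in the sum, with means of 1730, 996.8 and 739.0 CPM in siControl untreated cells.

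In siControl cells progestin was accompanied by a broad, mostly modest rise. Of the 40 genes 32 rose and 2 fell, where 29.2% of all 18351 genes tested rose and 29.3% fell. The median log2 fold change was 0.25 for the 40 genes and -0.03 for all genes tested, and 0 of the 40 reached a 2-fold rise. The size of the rise depended on scaling: without scaling factors the median of all genes moved to -0.19 and 18 of the 40 rose and 5 fell, and with upper quartile scaling it moved to -0.15 and 23 rose and 5 fell. Relative to that median the 40 genes were higher by 0.285 with TMM factors. A scaling factor shifts all genes nearly alike, so this distance stays the same with any factors and is no check on scaling. Over all genes, 49.97% of calls were rises with TMM factors, 38.25% with upper quartile scaling and 33.85% without factors.

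All 7 polymerase I and nucleolar genes rose in siControl cells, by 0.17 to 0.45 log2 units, beside 29.2% of all genes tested. POLR1C, a subunit shared by RNA polymerases I and III, was at 65.7 and 64.8 CPM with progestin and at 45.3 and 49.3 CPM without (log2 0.45 ± 0.06, adjusted p = 4.66e-06). The abundant NPM1 was at 2071 and 2008 CPM with progestin and at 1762 and 1698 CPM without (0.23 ± 0.04), and NCL at 1202 and 1174 CPM with progestin and at 1022 and 971.4 CPM without (0.24 ± 0.04). Progestin libraries lay above untreated ones for each of these.

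Beside 29.2% of all genes tested, 6 of the 8 snoRNP genes rose. The largest rise was that of RRP9, a protein of the snoRNP that starts small subunit processing, at 38.9 and 39.4 CPM with progestin and 25.2 and 28.1 CPM without (0.54 ± 0.07). FBL, the ribose methyltransferase fibrillarin, followed at 97.2 and 95.1 CPM against 72.8 and 72.6 CPM in untreated cells (0.39 ± 0.05). The core protein NOP58 fell (-0.18 ± 0.05, adjusted p = 0.00398), but missed the threshold without siControl untreated replicate 1 (-0.11, adjusted p = 0.0851), and its partner NOP56 stood at 0.05 ± 0.05 (adjusted p = 0.327). DKC1, the pseudouridine synthase of box H/ACA particles, rose by 0.10 ± 0.04 with TMM factors but stood at -0.05 without factors and at -0.01 with upper quartile scaling, not past the threshold either time.

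Beside 29.2% of all genes rising and 29.3% falling, 9 of the 13 small subunit genes rose and none fell. Of the 11 large subunit genes, 9 rose and 1 fell. NOP16, a nucleolar factor of large subunit assembly on chromosome 5 (chr5:176383938-176388975, hg38), rose most. It was at 88.8 and 85.1 CPM with progestin and at 45.7 and 48.4 CPM without (0.87 ± 0.05, adjusted p = 3.45e-10). DDX10, an RNA helicase of small subunit processing (chr11:108665025-108940930), was at 127.3 and 125.1 CPM with progestin and at 73.1 and 67.0 CPM without (0.84 ± 0.05, adjusted p = 3.12e-10). In both genes the progestin libraries stood well apart from the untreated ones.

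DDX56, a helicase of large subunit assembly, was at 245.8 and 238.5 CPM with progestin and 156.0 and 163.5 CPM without (0.59 ± 0.04), and RRP12, a factor of subunit export, at 282.2 and 293.1 CPM against 184.3 and 199.4 CPM in untreated cells (0.57 ± 0.05). HEATR1, UTP4 and UTP20, scaffold proteins of the small subunit processome, stood at -0.03, -0.05 and -0.05, none past the threshold (adjusted p = 0.546, 0.323 and 0.340). PPAN fell by 0.38 ± 0.13 (adjusted p = 0.0264), from few counts: 6.64 and 7.42 CPM with progestin and 8.03 and 9.93 CPM without. That call was lost without siControl untreated replicate 2 (-0.20) and without siControl progestin replicate 1 (-0.28), and 59.8% of the exon length of PPAN overlaps other genes of the same strand, P2RY11 and a read-through transcript, so its counts are uncertain.

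Progestin was also accompanied by a rise in siCEBPA cells. There 35 of the 40 genes rose with progestin and none fell, with 29.9% of all genes tested rising and 28.4% falling, and the median was 0.31 for the 40 genes and -0.03 for all genes. DESeq2 also called 0 genes lower, and no gene of the 40 with a log2 change under 0 had an unadjusted p under 0.05. Without scaling factors 25 rose and 2 fell, and with upper quartile scaling 27 rose and 2 fell. Of all calls in siCEBPA cells, 51.31% were rises with TMM factors, 36.85% with upper quartile scaling and 33.32% without factors. The largest rises were those of RRS1, a large subunit factor (82.3 and 91.5 CPM with progestin, 46.0 and 47.3 CPM without, 0.89 ± 0.05), of NOP16 (73.6 and 71.9 CPM with progestin, 38.6 and 39.9 CPM without, 0.88 ± 0.05) and of URB2, a large subunit factor on chromosome 1 (chr1:229626234-229660199; 110.6 and 114.2 CPM with progestin, 61.4 and 63.4 CPM without, 0.84 ± 0.04). In these 3 genes every progestin library was above every untreated one. Of the exon length of RRS1, 11.4% is shared with ADHFE1.

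By role, all 7 polymerase I and nucleolar genes, 7 of 8 snoRNP genes, 11 of 13 small subunit genes and 9 of 11 large subunit genes rose in siCEBPA cells. Of all genes tested, 29.9% rose there. BOP1, a scaffold of large subunit assembly, was at 46.4 and 59.6 CPM with progestin and at 28.8 and 32.9 CPM without (0.77 ± 0.13, adjusted p = 0.00180). NOP58, HEATR1, PPAN, UTP15 and NOP2 did not pass the threshold, with log2 changes between -0.09 and 0.18. UTP4 (0.13 ± 0.04), UTP20 (0.14 ± 0.04) and WDR12 (0.15 ± 0.06), the last a partner of BOP1, rose with TMM factors but stood at -0.04, -0.03 and -0.02 without factors.

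The difference between the hormone responses of siCEBPA and siControl cells was small for this list. It passed the threshold upwards for 2 genes and downwards for 1, with 4.19% of all genes passing upwards and 3.06% downwards, and its median was 0.05 for the 40 genes. RRS1 responded more in siCEBPA cells (difference 0.43 ± 0.07, adjusted p = 0.00191), and so did URB2 (0.28 ± 0.06, adjusted p = 0.0105). DDX10 responded less (-0.25 ± 0.07, adjusted p = 0.0342), a call that was lost without any one of 6 of the 8 siRNA libraries (differences of -0.19 to -0.26). The URB2 call was lost without siControl progestin replicate 1 (0.26, adjusted p = 0.0769).

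With ICRF the direction was the opposite for most of the list. Of the 40 genes 29 fell with progestin and 4 rose, with 30.0% of all 18556 genes falling and 31.3% rising, and the median was -0.27 for the 40 genes and -0.01 for all genes. Without any one of the 4 ICRF libraries, 25 to 30 genes fell and 4 rose. Scaling choices left 29 to 33 falling and 4 rising.

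The largest falls were those of MYBBP1A, a Myb-binding protein of the nucleolus (chr17:4538897-4555631), of WDR43, a processome protein, and of GNL3, the nucleolar GTPase nucleostemin. MYBBP1A was at 26.8 and 25.9 CPM with progestin and at 45.3 and 45.7 CPM without (-0.81 ± 0.05, adjusted p = 4.15e-18). WDR43 was at 48.8 and 47.5 CPM with progestin and at 79.2 and 78.8 CPM without (-0.73 ± 0.04), and GNL3 at 63.0 and 67.3 CPM with progestin and at 103.0 and 104.5 CPM without (-0.69 ± 0.04). Replicates lay close together and the groups did not overlap.

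Among polymerase I and nucleolar genes 5 of 7 fell with ICRF, and among snoRNP genes 6 of 8, where 30.0% of all genes tested fell. DDX21 fell by 0.52 ± 0.03, to 443.2 and 455.0 CPM with progestin against 635.0 and 634.9 CPM without. NOP58 fell by 0.59 ± 0.04 and DKC1 by 0.55 ± 0.04. NPM1, at 1957 and 2021 CPM with progestin and 2071 and 2020 CPM without, did not pass (-0.06 ± 0.03, adjusted p = 0.133), and neither did NHP2 and GAR1, small proteins of box H/ACA particles (-0.06 and 0.02).

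NOLC1 fell with ICRF, to 342.4 and 354.5 CPM with progestin against 439.5 and 447.3 CPM without (-0.36 ± 0.03), and rose in siCEBPA cells (428.0 and 424.5 CPM with progestin, 357.1 and 332.3 CPM without) and in siControl cells (236.6 and 232.4 CPM with progestin, 206.0 and 195.8 CPM without). All 4 siControl libraries lay below the other 8.

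In the small subunit class 11 of 13 genes fell with ICRF, beside 30.0% of all genes tested. NOP14, a processome protein, was at 74.4 and 79.5 CPM with progestin and 97.55 and 100.4 CPM without (-0.38 ± 0.04), where siControl cells had 196.3 and 182.3 CPM with progestin and 125.9 and 130.7 CPM without (0.55 ± 0.05). NAT10, the acetyltransferase of small subunit RNA, was at 100.8 and 97.5 CPM with progestin and 147.2 and 141.8 CPM without (-0.56 ± 0.04), where siControl cells had 228.3 and 224.2 CPM with progestin and 181.1 and 179.4 CPM without (0.32 ± 0.04). In both genes the hormone groups were separate in each setting, in opposite order.

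In the large subunit class 7 of 11 genes fell, beside 30.0% of all genes tested. BOP1 fell by 0.58 ± 0.05, and its partner PES1 by 0.43 ± 0.04, to 63.3 and 63.4 CPM with progestin against 84.5 and 84.2 CPM without. Beside MYC, the genes that rose with ICRF were URB2 (81.7 and 76.5 CPM with progestin, 63.0 and 62.1 CPM without, 0.32 ± 0.04), UTP15, a processome protein (64.7 and 65.4 CPM with progestin, 53.5 and 53.7 CPM without, 0.26 ± 0.04), and DDX18, a helicase (154.1 and 159.9 CPM with progestin, 139.5 and 136.3 CPM without, 0.17 ± 0.04). The progestin libraries of each lay above the untreated ones.

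**Figure D3:**
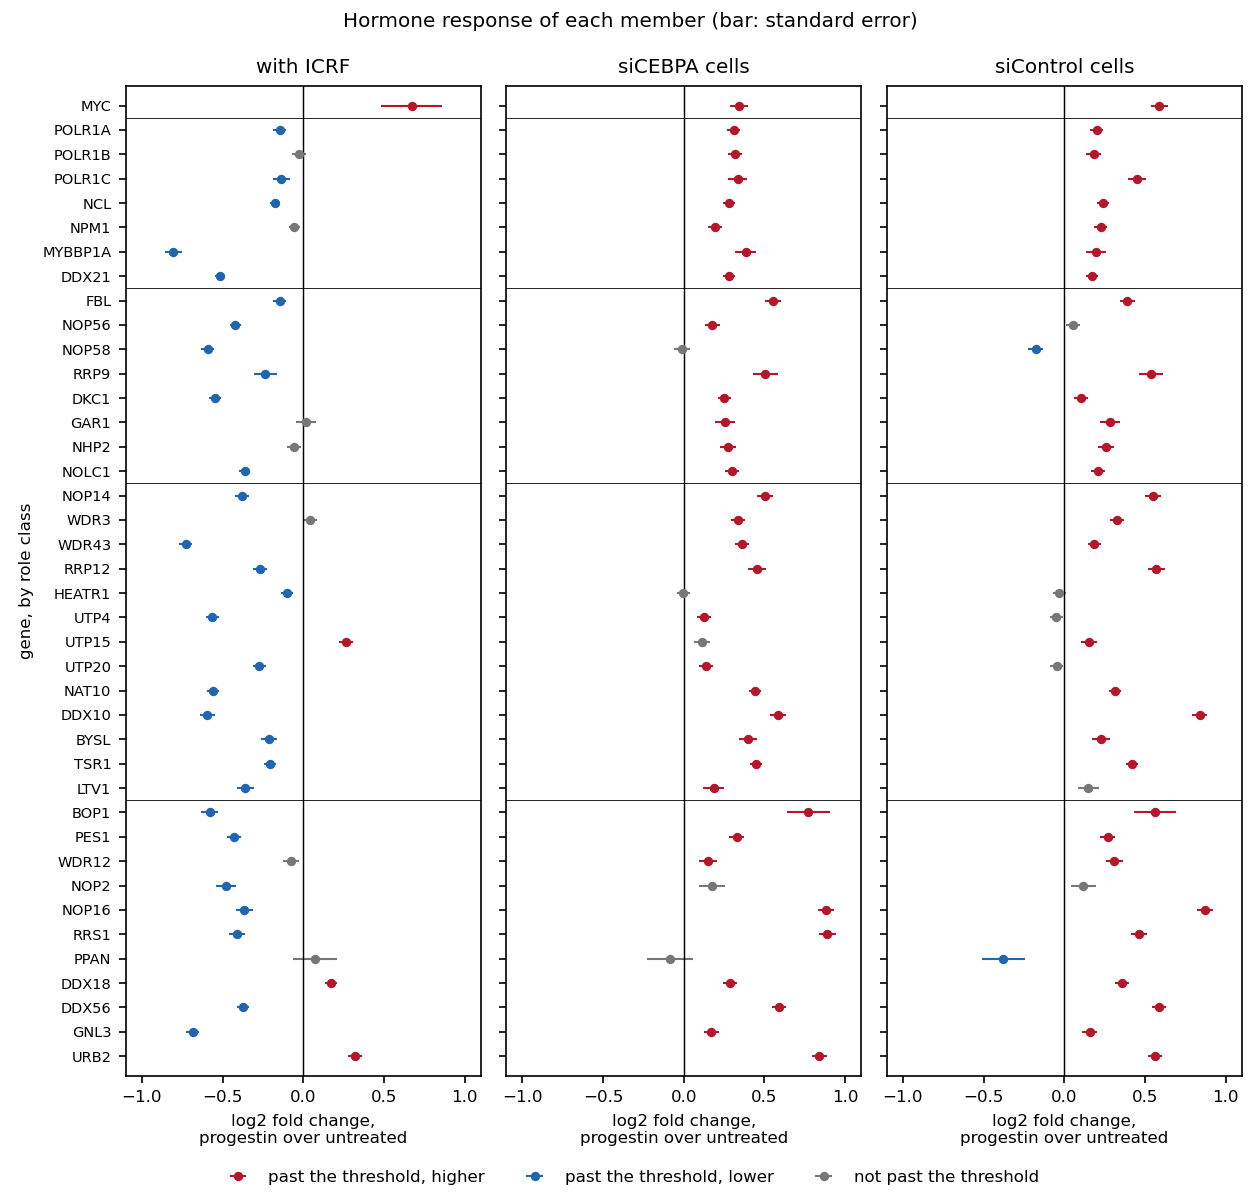
Log2 fold change of each of the 40 genes, progestin over untreated, with its standard error (bars, n = 2 libraries a group), with ICRF, in siCEBPA cells and in siControl cells; red and blue points passed an adjusted p of 0.05 and grey points did not. With ICRF 29 points are blue and 4 red, in siCEBPA cells 35 are red, and in siControl cells 32 are red and 2 blue.

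Tested directly, the response with ICRF was below that in siControl cells for 36 of the 40 genes and above it for 0, with 24.0% of all 19003 genes below and 24.9% above. The other 4 genes were MYC, HEATR1, UTP15 and PPAN. DESeq2 also called 0 above, and of the genes with a difference over 0 1, PPAN, had an unadjusted edgeR p under 0.05. The median difference was -0.52 for the 40 genes and 0.02 for all genes. Without scaling factors the median of all genes moved to 0.17, 30 genes were below and 2 above, and 65.16% of all calls were above, against 50.89% with TMM factors. The largest differences were those of DDX10 (-1.43 ± 0.06, adjusted p = 2.62e-13), NOP16 (-1.24 ± 0.07, adjusted p = 4.86e-12) and BOP1 (-1.14 ± 0.18, adjusted p = 0.000827). DDX10 was at 43.3 and 44.0 CPM with progestin and 66.3 and 64.2 CPM without in ICRF cells, NOP16 at 27.9 and 28.6 CPM against 35.6 and 36.4 CPM in untreated ICRF cells, and BOP1 at 34.6 and 31.0 CPM against 47.6 and 49.5 CPM in untreated ICRF cells. In all 3 the ICRF progestin libraries were the lower ones, while in siControl cells the progestin libraries were the higher ones.

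The calls of the 3 hormone comparisons are set side by side. These comparisons share no library, but the 2 siRNA settings were fitted together and share their scaling and estimate of spread. Rising in siCEBPA and siControl cells and falling with ICRF was the commonest pattern, shown by 22 of the 40 genes and by 5.02% of the 17565 genes tested in all 3 comparisons. Rising in all 3 was shown by 3 of the 40 (MYC, DDX18 and URB2) and by 14.3% of all genes. A further 6 genes (POLR1B, NPM1, GAR1, NHP2, WDR3 and WDR12) rose in both siRNA settings and did not pass with ICRF. NOP56, UTP4, UTP20 and LTV1 passed upwards in siCEBPA cells only and downwards with ICRF, although the difference between the 2 siRNA settings did not pass for any of them.

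All 12 genes with an E-box in their window, printed above, fell with ICRF, with a median of -0.40. Of the 20 genes with a window but no E-box, 12 fell and 1 rose, with a median of -0.14. MYC, NOP58, NOLC1, RRP12, BOP1, RRS1, DDX18 and URB2 had no window and stand outside this split. Among them MYC, DDX18 and URB2 rose with ICRF, and the others fell. Across all genes tested with ICRF that had a window, 36.5% of 1210 with an E-box and 31.9% of 11224 without one fell, and 33.8% with and 35.4% without rose. In siCEBPA cells 11 of the 12 genes with an E-box and 17 of the 20 without rose, with 36.9% and 33.9% of all genes with a window. In siControl cells 8 of the 12 and 17 of the 20 rose, with 34.7% and 32.9% of all genes. These are counts in small groups and were not tested.

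**Figure D4:**
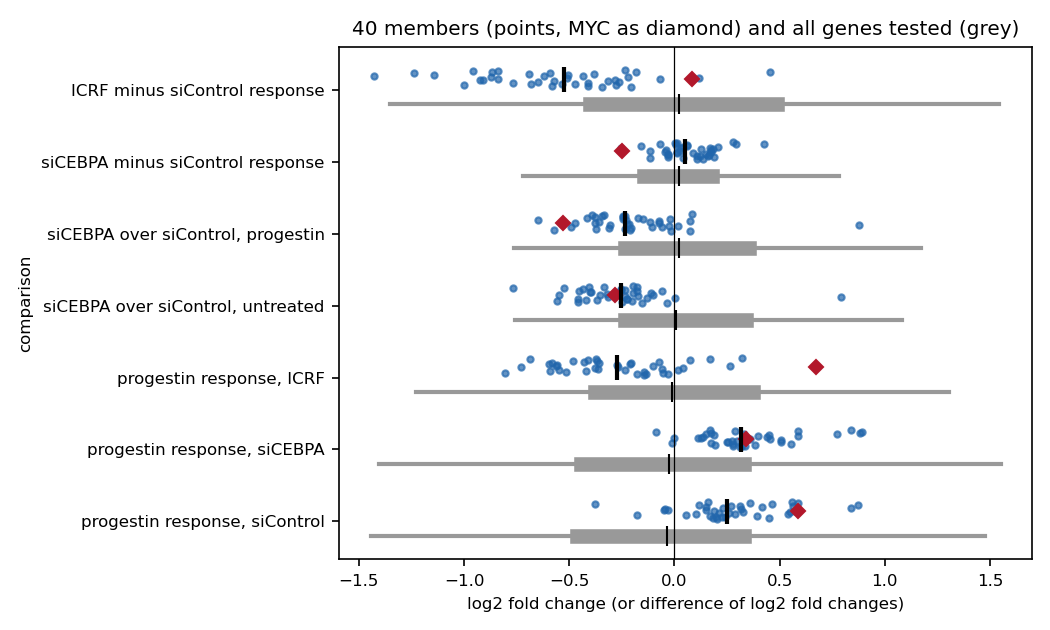
Log2 fold changes of the 40 genes (points; MYC as a diamond; long tick, their median) in each comparison, above the distribution of all genes tested (thick grey bar, middle 50%; thin grey bar, middle 90%; short tick, median). The medians of the 40 genes are 0.25 in siControl, 0.31 in siCEBPA and -0.27 with ICRF, beside medians of all genes of -0.03, -0.03 and -0.01.

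Most of the list was lower in siCEBPA than in siControl cells, with and without hormone. In progestin-treated cells 26 of the 40 genes were lower and 1 higher in siCEBPA than in siControl cells, with 22.1% of all genes lower and 22.5% higher. In untreated cells 35 were lower and 1 higher, with 24.0% of all genes lower and 22.6% higher. The median was -0.23 with progestin and -0.25 untreated, against 0.02 and 0.01 for all genes. Without scaling factors the median of all genes moved to 0.11 with progestin and 0.10 untreated, 23 and 26 genes were lower and 4 and 1 higher, and 64.94% and 65.33% of all calls were higher, against 50.45% and 48.53% with TMM factors. Markers moved in the same comparisons. Of 10 luminal markers 5 were lower and 3 higher with progestin, and 6 lower and 0 higher untreated, with TFF1, an oestrogen-responsive secreted protein, at -2.40 ± 0.12 and -2.41 ± 0.12. Of the 5 proliferation genes TOP2A alone passed with progestin (0.25 ± 0.06), and MKI67, CCNB1 and MCM2 were lower untreated. LUM, a fibroblast marker, was higher by 1.71 ± 0.17 with progestin and by 0.99 ± 0.15 untreated, at means of 1.04 to 3.38 CPM, and of the 8 fibroblast, endothelial and blood markers tested 1 was higher with progestin and 3 untreated. Their part in the result was not tested.

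MYC was lower after the siRNA by 0.53 ± 0.05 log2 units with progestin (adjusted p = 1.07e-06) and by 0.28 ± 0.05 untreated (adjusted p = 0.000542). The untreated value was -0.29 with an adjusted p of 0.0879, the highest of its 14 alternatives (the lowest was 9.46e-07), when all 12 libraries were fitted together. With progestin the largest falls beside it were those of DDX10 (78.5 and 80.6 CPM in siCEBPA, 127.3 and 125.1 CPM in siControl cells, -0.65 ± 0.05) and POLR1C (42.4 and 44.5 CPM in siCEBPA, 65.7 and 64.8 CPM in siControl cells, -0.57 ± 0.06). In untreated cells they were those of RRS1 (46.0 and 47.3 CPM in siCEBPA, 77.6 and 82.4 CPM in siControl cells, -0.77 ± 0.05), MYBBP1A (45.7 and 48.9 CPM in siCEBPA, 66.6 and 73.7 CPM in siControl cells, -0.56 ± 0.07) and WDR43 (64.5 and 66.4 CPM in siCEBPA, 96.0 and 97.2 CPM in siControl cells, -0.55 ± 0.04). For each of these 5 genes both siCEBPA libraries lay below both siControl libraries. The genes were chosen for their falls, so this is no further support.

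By role, all 11 large subunit genes were lower in untreated siCEBPA cells, with 11 of 13 small subunit, 6 of 8 snoRNP and 6 of 7 polymerase I and nucleolar genes. With progestin the counts were 8 of 11, 9 of 13, 3 of 8 and 5 of 7. Of all genes tested, 24.0% were lower untreated and 22.1% with progestin. In the same order of classes the medians with progestin were -0.25, -0.22, -0.08 and -0.24. NOLC1 (chr10:102152176-102163871) was the exception, higher by 0.88 ± 0.04 with progestin (428.0 and 424.5 CPM in siCEBPA, 236.6 and 232.4 CPM in siControl cells) and by 0.79 ± 0.04 untreated (357.1 and 332.3 CPM in siCEBPA, 206.0 and 195.8 CPM in siControl cells). No siCEBPA library overlapped a siControl library for NOLC1. POLR1A, GAR1, HEATR1 and LTV1 passed in neither state, and 34.8% of the exon length of LTV1 overlaps other genes of its strand, so its counts are uncertain.

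**Figure D5:**
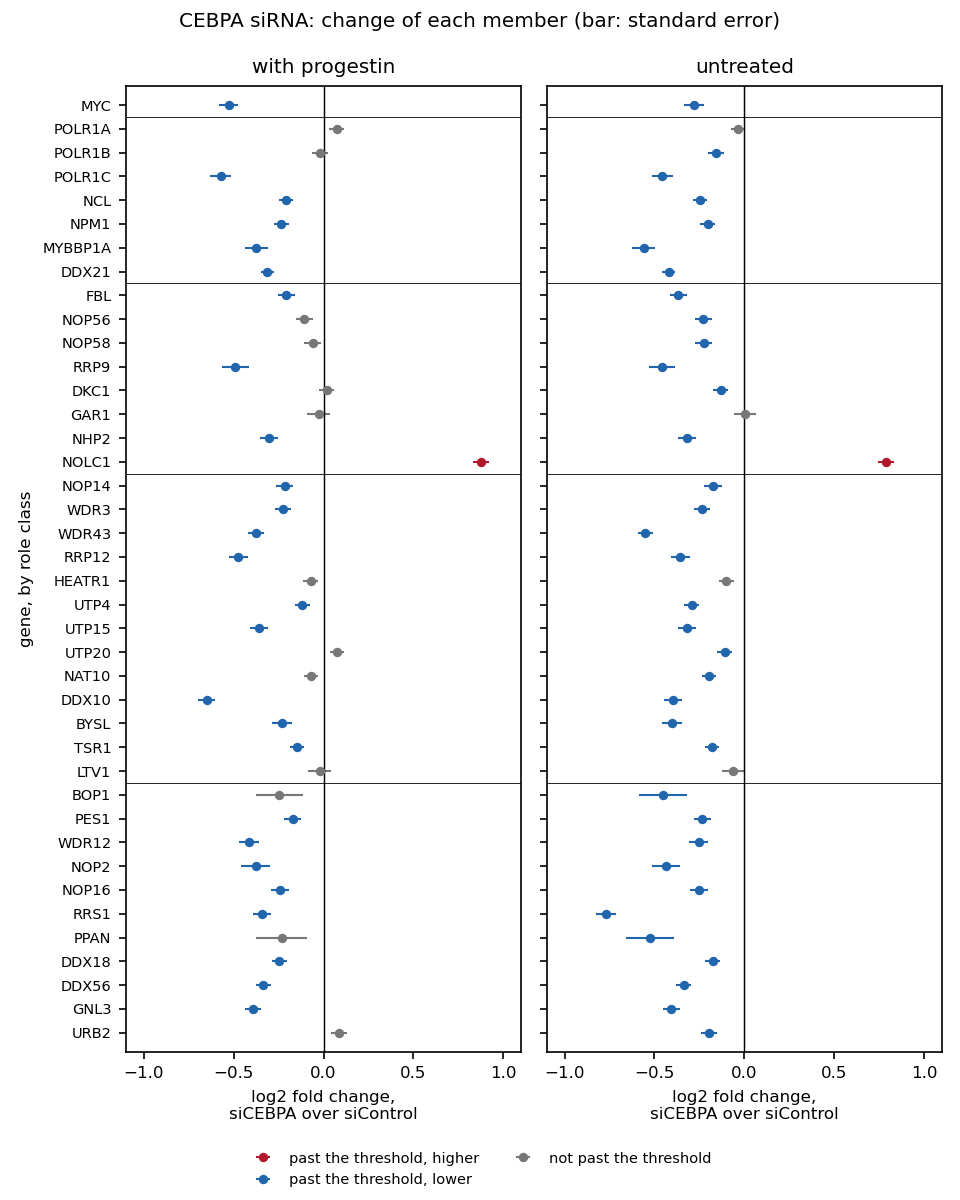
Log2 fold change of each of the 40 genes, siCEBPA over siControl, with its standard error (bars, n = 2 libraries a group), in progestin-treated and in untreated cells; red and blue points passed an adjusted p of 0.05 and grey points did not. NOLC1 is the only red point in both panels, at 0.88 and 0.79, while 26 points with progestin and 35 untreated are blue.

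Neighbouring gene lists gave the setting. Of all genes tested, 31.3% rose and 30.0% fell with progestin under ICRF. In siCEBPA cells 29.9% rose and 28.4% fell, and in siControl cells 29.2% rose and 29.3% fell. The counts of the lists below were not tested against these shares. Of 37 other small subunit factors tested, 13 rose and 13 fell with progestin under ICRF, 25 rose and 5 fell in siCEBPA cells, and 25 rose and 6 fell in siControl cells. Of 38 other large subunit factors, 5 rose and 22 fell under ICRF, 27 rose and 4 fell in siCEBPA cells, and 22 rose and 3 fell in siControl cells. Without scaling factors 15 small and 14 large subunit factors rose in siCEBPA cells and 13 of each in siControl cells. With that setting 3792 of all 18351 genes rose and 7588 fell in siCEBPA cells, and 3836 rose and 7495 fell in siControl cells. MPHOSPH10, a small subunit processome protein, rose in all 3 settings, by 1.48 ± 0.04, 2.05 ± 0.05 and 1.89 ± 0.05, the largest change of its list past the threshold each time. WDR74, a large subunit factor, rose by 0.91 ± 0.08 in siCEBPA cells and by 0.80 ± 0.07 in siControl cells. RRP1B, of the large subunit, rose under ICRF (0.72 ± 0.04), while MRTO4, also of the large subunit, fell (-0.48 ± 0.04). RIOK1, a kinase of small subunit maturation, rose by 0.69 ± 0.05 under ICRF and by 0.78 ± 0.06 in siCEBPA cells, RRP1B rose by 0.69 ± 0.05 in siCEBPA cells, and RRP7A and RRP8 rose by 0.84 ± 0.04 and 0.65 ± 0.06 in siControl cells. Without ICRF untreated replicate 1, 8 other small subunit factors fell under ICRF.

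Of 18 other genes of the polymerase I machinery, 8 rose and 6 fell with progestin under ICRF, 8 rose and 3 fell in siCEBPA cells, and 9 rose and 3 fell in siControl cells. The shares of all genes rising and falling were 31.3% and 30.0%, 29.9% and 28.4%, and 29.2% and 29.3% in the same order. TCOF1, the nucleolar protein treacle, rose by 0.88 ± 0.04 in siCEBPA and by 0.92 ± 0.04 in siControl cells, and its response with ICRF was lower than in siControl cells (difference -1.06 ± 0.06, adjusted p = 5.14e-12). TAF1B, a subunit of the polymerase I selectivity factor, fell by 0.90 ± 0.09 in siCEBPA cells and by 0.90 ± 0.09 in siControl cells. TAF1A, another subunit of that factor, rose under ICRF by 1.06 ± 0.10, and so did POLR1F by 0.67 ± 0.04. Without scaling factors 4 genes of this list rose in each siRNA setting, and 8 fell in siCEBPA and 7 in siControl cells. The counts over all genes with that setting are given above. Without ICRF untreated replicate 2, 3 fell under ICRF.

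Among MYC's relatives and partners, 7 of 18 tested rose and 6 fell with progestin under ICRF, 9 of 19 rose and 4 fell in siCEBPA cells, and 9 of 19 rose and 5 fell in siControl cells. All genes rose and fell in shares of 31.3% and 30.0%, 29.9% and 28.4%, and 29.2% and 29.3% in that order. MXD1, which competes with MYC for MAX, rose under ICRF (1.32 ± 0.07) and in siControl cells (0.88 ± 0.08). MYCL, a MYC paralogue, rose by 0.65 ± 0.08 under ICRF and by 1.07 ± 0.08 in siCEBPA cells. It was at a mean of 19.4 CPM in siCEBPA and 6.58 CPM in siControl progestin cells (1.57 ± 0.09), and its hormone response was larger in siCEBPA than in siControl cells (difference 0.96 ± 0.12, adjusted p = 0.000151). MLXIPL, a glucose-responsive relative, fell in siCEBPA cells (-1.02 ± 0.10) and in siControl cells (-1.05 ± 0.10).

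Of 25 known MYC targets outside the ribosome, 6 rose and 16 fell with progestin under ICRF, 17 rose and 2 fell in siCEBPA cells, and 15 rose and 1 fell in siControl cells. Beside them, 31.3% of all genes rose and 30.0% fell under ICRF, 29.9% and 28.4% in siCEBPA, and 29.2% and 29.3% in siControl cells. SRM, the spermidine synthase, rose by 1.24 ± 0.06 in siCEBPA and by 1.17 ± 0.06 in siControl cells, and its response with ICRF was lower than in siControl cells (difference -1.32 ± 0.09, adjusted p = 4.48e-09). LDHA, a lactate dehydrogenase subunit, rose by 1.24 ± 0.05 in siCEBPA and by 1.26 ± 0.05 in siControl cells. PPRC1, a transcriptional coactivator, fell under ICRF (-0.78 ± 0.04). EIF4A1 fell too (-0.89 ± 0.15), at means of 1.60 and 2.93 CPM, and a read-through gene covers it, so its counts are uncertain.

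After the siRNA against CEBPA, more genes of each list were lower than higher, though not always most of the list. Of all genes tested, 22.1% were lower and 22.5% higher with progestin, and 24.0% lower and 22.6% higher untreated. Without scaling factors 2915 of all 18351 genes were lower with progestin and 2970 untreated. The counts of the lists were not tested against these shares. Of the polymerase I machinery 8 of 18 genes were lower and 2 higher with progestin, and 11 lower and 1 higher untreated. Of the MYC network 6 of 19 were lower and 4 higher with progestin, and 7 lower and 3 higher untreated. Without scaling factors 5 genes of the polymerase I machinery were lower in either state, and without siControl untreated replicate 2, 6 were lower untreated. Other small subunit factors were lower in 22 of 37 cases with progestin and in 24 untreated (15 without scaling factors), other large subunit factors in 22 of 38 both times (14 with progestin without scaling factors), and MYC targets outside the ribosome in 16 of 25 both times. RRP1B was lower by 0.77 ± 0.04 with progestin and by 0.96 ± 0.05 untreated, SURF6, a nucleolar matrix protein, by 0.54 ± 0.05 and 0.58 ± 0.05, SHMT2, a mitochondrial enzyme of one-carbon metabolism, by 0.77 ± 0.05 and 0.83 ± 0.05, and PRMT1, an arginine methyltransferase, by 0.79 ± 0.05 and 0.81 ± 0.05. TCOF1 was higher, by 0.47 ± 0.04 and 0.51 ± 0.04. With progestin RRP7A, of the small subunit, was lower by 0.49 ± 0.04, RRN3, an initiation factor of polymerase I, by 0.47 ± 0.05, and MXI1, a MAX partner, by 0.77 ± 0.07, while MPHOSPH10 was higher by 0.44 ± 0.05. Untreated, MXI1 was lower by 0.69 ± 0.07, RUVBL2, a helicase that works with MYC, by 0.87 ± 0.08, TTF1, a terminator protein of polymerase I, by 0.49 ± 0.06, and the small subunit factors NOC4L and RCL1 by 0.53 ± 0.11 and 0.49 ± 0.06.

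The difference of hormone responses was also tested in these lists. Of all genes tested, 4.19% passed upwards and 3.06% downwards for siCEBPA minus siControl. For ICRF minus siControl 24.0% of all genes were below and 24.9% above. For siCEBPA minus siControl 1 of 19 genes of the MYC network passed upwards (MYCL), and 1 of 37 other small subunit factors (RRP7A, -0.28 ± 0.06) and 1 of 25 MYC targets (TFRC, the transferrin receptor, -0.52 ± 0.06) passed downwards. For ICRF minus siControl 21 of 37 other small subunit factors were below and 8 above, 26 of 38 large subunit factors were below and 5 above, and 20 of 25 MYC targets were below and 3 above. The polymerase I machinery had 4 of 18 below and 7 above, and the MYC network 8 of 19 below and 6 above. Beside TCOF1 and SRM, given above, the genes with the largest differences in their lists were RRP7A (-1.15 ± 0.06) and WDR46 (-0.997 ± 0.06) of the small subunit, WDR74 (-1.05 ± 0.09) and MRTO4 (-0.85 ± 0.06) of the large subunit, FASN, the fatty acid synthase (-1.19 ± 0.15), POLR1F, a polymerase I subunit (0.76 ± 0.06), and the MAX or MLX partners MLXIPL (1.21 ± 0.14) and MXD3 (0.76 ± 0.14).

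Proliferation genes moved beside these results. Of MKI67, TOP2A, CCNB1, PCNA and MCM2, 1 rose and 1 fell with progestin under ICRF, all 5 fell in siCEBPA cells and all 5 fell in siControl cells, with medians of -0.06, -0.32 and -0.55. MKI67 averaged 330.5 CPM in ICRF progestin and 378.5 CPM in ICRF untreated cells, 281.6 and 340.1 CPM in siCEBPA, and 265.3 and 380.6 CPM in siControl cells in the same order. The luminal markers moved as well, with 10 of 10 falling under ICRF, 7 of 10 falling and 1 rising in siCEBPA cells, and 6 of 10 falling and 1 rising in siControl cells. The one that rose was KRT19, a luminal keratin, by 0.75 ± 0.05 in siCEBPA cells (means of 2968 CPM with progestin and 1750 CPM without) and by 0.87 ± 0.05 in siControl cells (4255 and 2305 CPM), while it fell under ICRF (-1.44 ± 0.03). The part of either in the results on ribosome biogenesis was not tested.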

How the data were processed

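The authors' deposited values were raw read-pair counts per gene, 1 file per library. Per the file headers they came from featureCounts 1.5.1 in paired, reverse-stranded mode on GENCODE 24 genes of hg38 and STAR alignments. No option for multiply aligned or overlapping reads was set, so genes with copies (NPM1 has processed pseudogenes) or shared exons are uncertain. Trimmomatic and STAR are listed, without versions, in the submitters' processing notes. Symbols were matched for 56558 of 60554 genes (93.4%).

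Counts were tested with edgeR 4.0.16, run under R 4.3.3 with limma 3.58.1 (filterByExpr, TMM factors, quasi-likelihood F test, Benjamini-Hochberg adjustment over all genes tested, threshold 0.05). The 8 siRNA libraries, the 4 ICRF libraries and all 12 (for ICRF minus siControl) were fitted separately. Standard errors were taken from each log2 fold change divided by the root of its F value. CPM used TMM factors over 12 libraries, and TPM the deposited gene lengths. Replicates of a group differed by more than counting noise (mean chi-square per gene 4.16 to 13.6).

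The genes, role classes and other lists were chosen with earlier results of these data known. Genes named were MYC, the 2 of highest TPM in each class, the 3 largest rises and falls past the threshold in each comparison and the 2 largest changes of each other list. Further single genes were chosen after their values were seen. Where the libraries of 2 groups are said to lie apart for such genes, this describes the printed values and is no further support. The steps were tested on simulated counts with 200 changed genes. Alternatives were no scaling factors, upper quartile scaling, no filter, a replicate block, DESeq2 1.42.0, all 12 libraries in one fit, and leaving out each library. ChIP-seq samples of the series (18) were left out, since the report is on RNA.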

Additional observations from a re-analysis of the deposited data

Results flagged for a closer look

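The 6 results are given again because the hormone response differed between settings by a direct test. RRS1 (0.4273) and URB2 (0.2804) responded more, and DDX10 (-0.2531) less, in siCEBPA than in siControl cells. DDX10 (-1.4305), NOP16 (-1.2362) and BOP1 (-1.1408) had a lower response with ICRF than in siControl cells. Each value is a difference of log2 fold changes from edgeR, and the cause of none was tested. The siRNA and ICRF libraries may differ in more than the agent, since the ICRF labels name no siRNA, arrest or time.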

How the results depend on the processing

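The alternatives kept the direction of most results. Without scaling factors 18 of the 40 genes rose and 5 fell in siControl cells, and 2 fell in siCEBPA cells. With upper quartile scaling 5 fell in siControl and 2 in siCEBPA cells. Without factors 4 genes were higher after the siRNA with progestin, and 2 responses were above siControl with ICRF. That last count was 1 with upper quartile scaling, without the filter and with the replicate block. For siCEBPA minus siControl the response was lower for 2 genes with upper quartile scaling and 2 with DESeq2. MYC in that difference was -0.27 (adjusted p = 0.0431) with upper quartile scaling and -0.25 (adjusted p = 0.0460) with DESeq2, where its 14 alternatives ran from 0.0236 to 0.516. MYC after the siRNA untreated was -0.29 with all 12 libraries in one fit (adjusted p = 0.0879). In these cases the cause was not tested.

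Some single genes turned with scaling. In siControl cells DKC1 stood at -0.0518 without factors and -0.008 with upper quartile scaling, and UTP15 at -0.003 without factors. In siCEBPA cells UTP4 stood at -0.0407 without factors and -0.0052 with upper quartile scaling, UTP20 at -0.0283 and WDR12 at -0.0154 without factors.

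The labels number the replicates but do not pair them, and correlations of the deviations of same-numbered libraries ran from -0.12 to 0.24. The highest, 0.207, 0.232 and 0.24, were all among siControl untreated, siCEBPA untreated and siCEBPA progestin cells. Whether these groups share a replicate effect was not tested. With the number as a replicate block, the response was larger in siCEBPA cells for 5 genes and smaller for 2, and MYC's difference was -0.25 (adjusted p = 0.0236). Over all 18351 genes tested, 1324 passed upwards and 947 downwards with the block, against 768 and 561 without it.

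Leaving out 1 library at a time gave 1 to 2 genes falling in siControl cells, 1 to 2 above and 0 to 1 below for siCEBPA minus siControl, and 0 to 1 above for ICRF minus siControl. MYC's ICRF difference ran from -0.18 to 0.40. Where a lone sample was left in a group, it was assumed to vary like the others.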
